A study of Homo sapiens with 6 samples.

Results

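The genes described here encode the proteins of the mitochondrial ribosome. They were taken as every protein-coding gene of the count table whose symbol begins with MRPL (large subunit) or MRPS (small subunit) followed by a digit, which gave 78 genes, 49 MRPL and 29 MRPS, of the 79302 genes listed. Members and related gene lists were compared between 3 HCT116 libraries carrying an shRNA against GDPD5 (shGDPD5) and 3 HCT116 libraries carrying a control shRNA (shCtrl). HCT116 is a human colorectal cancer cell line, and GDPD5 encodes a glycerophosphodiester phosphodiesterase of lipid metabolism. The paper describes the sequenced cells of both groups as a radioresistant derivative collected some hours after irradiation, whereas the sample labels give only the line and the shRNA. Which of the GDPD5 shRNAs was sequenced is not stated. It is also not stated that replicates were separate cultures, so p-values measure only the spread between these libraries, which may be technical.

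The mitochondrial ribosome translates the few mRNAs of the mitochondrial genome, all of which encode core subunits of the respiratory chain or of ATP synthase. Its rRNAs are made inside the organelle from mitochondrial DNA, while its proteins are encoded in the nucleus, translated by cytosolic ribosomes and imported. The small subunit binds the mRNA and decodes it, and the large subunit joins the amino acids and passes the nascent chain into the inner membrane. Many of its proteins have bacterial relatives, and others exist only in mitochondria. In bulk RNA, fewer cells that express a gene and less RNA of it in each cell cannot be told apart.

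All 78 genes were expressed: their estimated counts lay between 120 and 3443 in every library, all 78 passed the filter on low counts, and they took 0.391% to 0.402% of the counts in shGDPD5 libraries and 0.366% to 0.376% in shCtrl libraries. Total counts were 16715447 to 18510670 per library, and 16755 genes were tested. GDPD5 itself was at 5.44, 5.55 and 5.19 CPM (counts scaled to a common library size of 1e+06) in shGDPD5 libraries, against 8.33, 11.6 and 9.75 CPM in shCtrl libraries (log2 fold change -0.88 ± 0.13 SE, adjusted p = 0.000116). Of 8 epithelial markers 6 were tested. EPCAM, CDH1, KRT8, KRT18 and CDX2 were lower, and KRT20 was higher (log2 fold change 1.23, adjusted p = 0.000203). Thus 83.3% were lower and 16.7% higher, beside 30.1% and 29.7% over all genes tested. The summed level of the 8 markers was 2080 to 2183 CPM in shGDPD5 libraries against 2512 to 2792 CPM in shCtrl libraries. VIL1 and LGALS4 had at most 10 counts in any library. Of 14 markers of fibroblasts, leukocytes and endothelium, COL1A1 and LYZ alone were tested, and COL1A2, DCN, LUM, CD3E and CDH5 were at 0 throughout. The library shCtrl replicate 1 stood apart from its group: its chi-square per degree of freedom against the other shCtrl libraries was 6.12 and 7.10, against 1.66 between those other libraries and 1.68 to 3.33 among shGDPD5 libraries. It held the lowest value of its group for 41 of the 78 genes, and without it MRPL12, MRPL3, MRPL46, MRPL50 and MRPS31 were also called and MRPL22 was not. The 8 proliferation genes examined were all higher in shGDPD5 libraries, beside 29.7% of all genes tested. Their log2 fold changes ran from 0.42 (CDK1) to 2.07 (TYMS), with MKI67 and PCNA between. Their summed level was 1952 to 1973 CPM in shGDPD5 libraries against 773 to 808 CPM in shCtrl libraries. The part of proliferation, of the epithelial markers and of shCtrl replicate 1 in the results below was not tested beyond the values given.

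The nucleotides before the start sites of the members with the largest differences illustrate what the family shares and what it does not. RefSeq (GRCh38.p14) gave a window from 250 bases before to 50 bases after the start for 69 of the 78 genes. Short motifs of factors known to act at genes of mitochondrial proteins and of cycling cells were searched in it on both strands. The ETS motif CCGGAAG, the letters bound by the GABP factor, was present in 43.5% of the 69 member windows, beside 16.5% of 15843 protein-coding genes and 12.2% of all 27305 genes with a window. The YY1 motif AAGATGG was present in 34.8% of member windows, beside 7.90% of protein-coding and 7.11% of all genes. For the NRF1 motif GCATGCGC these shares were 8.70% and 4.89%, and for the SP1 motif GGGCGG 60.9% and 64.3%. The NF-Y motif CCAAT was present in 33.3% of member windows and 42.1% of those of protein-coding genes, the E-box CACGTG of MYC in 9 of 69 and in 10.9%, the cell cycle motif TTTGAA (CHR) in 7.25% and 15.8%, and either E2F motif, TTTCGCGC or TTTGGCGC, in 4.35% and 1.99%. A match is a description of letters and not evidence of binding. The ETS motif stood in the window of 8 of 25 members called higher, 8 of 15 called lower and 14 of 29 not called, so it was found among members of every direction. The YY1 motif stood in 11 of 25, 5 of 15 and 8 of 29 of them, in the same order. For the others these counts were 6, 2 and 1 (E-box), 1, 3 and 2 (NRF1), and 11, 4 and 8 (NF-Y). For SP1 they were 17, 7 and 18, for CHR 1, 2 and 2, and for E2F 2, 0 and 1. Differences between the calls were not tested. The ETS motif was present in 42.9% of large and 44.4% of small subunit windows.

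The following stretches lie before the RefSeq start and outside every exon of GENCODE release 29, and were chosen from the members with the largest changes in each direction. Each is printed 5′ to 3′ on the gene's strand, with every match to the motifs above, or to their reverse complements, in capitals. MRPL16 and MRPL37 were higher in shGDPD5 libraries, and MRPL58 and MRPS10 lower. MRPL16 is taken from chr11:59810873-59811028, minus strand, and ends 94 bases before the start. MRPL37 is taken from chr1:54200074-54200166, plus strand, MRPL58 from chr17:75012510-75012669, plus strand, and MRPS10 from chr6:42217866-42218025, minus strand, 4 bases before the start.
MRPL16: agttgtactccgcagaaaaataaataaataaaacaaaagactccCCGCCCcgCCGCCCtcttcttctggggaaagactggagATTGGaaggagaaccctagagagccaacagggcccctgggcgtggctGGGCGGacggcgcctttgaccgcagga
MRPL37: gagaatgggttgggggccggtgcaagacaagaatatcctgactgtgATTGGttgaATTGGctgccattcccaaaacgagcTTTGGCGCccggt
MRPL58: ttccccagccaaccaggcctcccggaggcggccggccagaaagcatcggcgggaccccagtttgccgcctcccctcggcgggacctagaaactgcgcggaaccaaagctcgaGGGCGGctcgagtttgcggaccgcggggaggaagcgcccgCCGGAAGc
MRPS10: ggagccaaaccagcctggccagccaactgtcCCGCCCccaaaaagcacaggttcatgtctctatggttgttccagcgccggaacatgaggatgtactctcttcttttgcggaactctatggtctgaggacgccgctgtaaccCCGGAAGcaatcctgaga
The printed stretches of MRPL58 and MRPS10 each hold an SP1 and an ETS match, that of MRPL16 holds SP1 and NF-Y matches, and that of MRPL37 NF-Y and E2F matches. The MRPL16 window also holds an ETS match, which lies outside the printed stretch, so no contrast between higher and lower genes can be read from these stretches.

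With knockdown of GDPD5 the mitoribosomal protein genes moved in both directions and by small amounts. At an adjusted p under 0.05, 29 of the 78 genes were higher in shGDPD5 libraries (37.2%), 17 were lower (21.8%) and 32 were not called. Over all genes tested 29.7% were higher and 30.1% were lower, so members had a larger share of higher and a smaller share of lower calls than the background, a difference that was not tested. The median log2 fold change of the members was 0.06 (quartiles -0.14 and 0.29), beside 0.01 over all genes tested. The members spanned -0.71 to 0.70, and the median of their absolute log2 fold changes was 0.20, beside 0.37 over all genes tested. Only 6 members (MRPL16, MRPL9, MRPL37 and MRPL23 higher, MRPL58 and MRPS10 lower) passed an adjusted p under 0.05 with a change of over 1.5-fold, a threshold passed by 27.6% of all genes tested. None had a log2 fold change of 1 or more in either direction with p under 0.05 without adjustment, which 12.0% of all genes tested had. Of the 46 called members 37 had log2 fold changes below 0.50 in size, and the standard error of a member's log2 fold change was 0.05 to 0.15 (median 0.07). All shGDPD5 libraries lay above all shCtrl libraries for 31 of the 78 members and below them for 19. Over the 16755 genes tested these counts were 5454 and 5428, so groups without overlap were common among all genes.

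**Figure D1:**
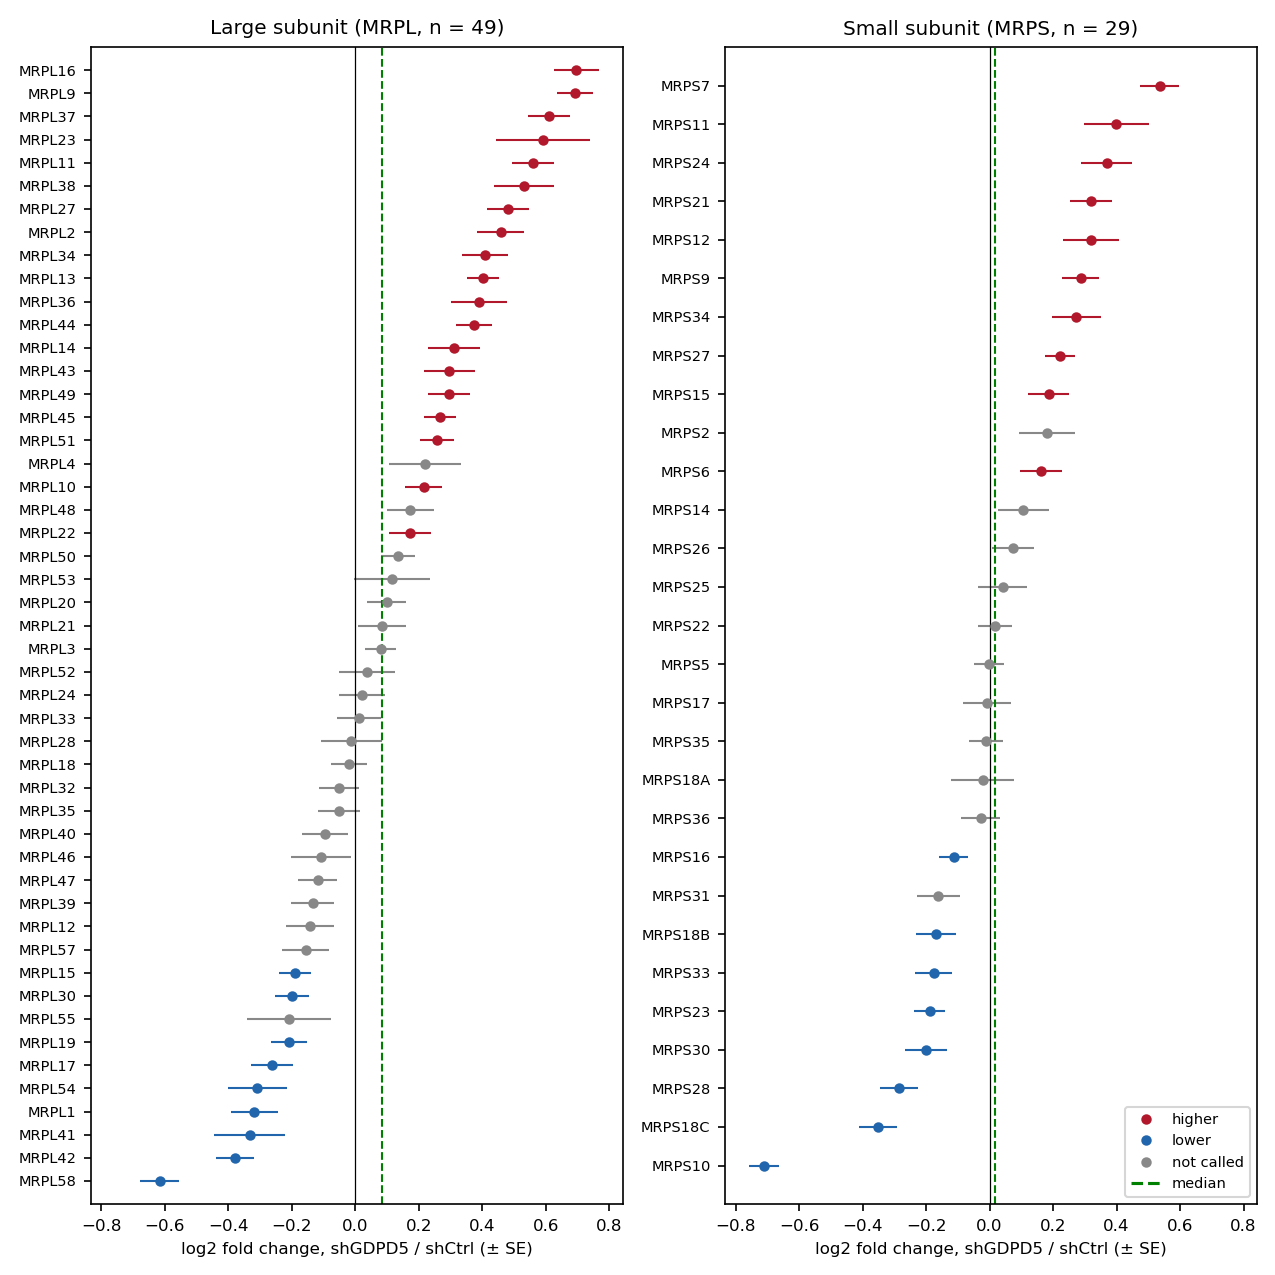
Log2 fold change (shGDPD5 over shCtrl, x axis) with its standard error for each of the 49 MRPL and 29 MRPS genes, 1 gene per line, coloured by the edgeR call at an adjusted p under 0.05. The genes form a continuous range from -0.71 to 0.70 with medians (dashed) of 0.08 for the large and 0.02 for the small subunit, and MRPL58 and MRPS10 lie apart from the next lowest gene of their subunit.

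Compared by subunit, 19 of the 49 MRPL genes were higher (38.8%) and 9 lower (18.4%), with a median log2 fold change of 0.08. Of the 29 MRPS genes 10 were higher (34.5%) and 8 lower (27.6%), with a median of 0.02. Over all genes tested 29.7% were higher and 30.1% lower. In the structure of the mammalian mitoribosome the products of MRPS30 and MRPS18A sit in the large subunit, and the product of MRPS36 is now regarded as a component of 2-oxoglutarate dehydrogenase. With genes placed by structure, 19 of 51 large subunit genes were higher (37.3%) and 10 lower (19.6%). Of 26 small subunit genes 10 were higher (38.5%) and 7 lower (26.9%). No test was made between these lists. The number of lower MRPS genes was the least stable of these counts: it was 5 without shCtrl replicate 2, without shGDPD5 replicate 2 or without shGDPD5 replicate 3, and 9 without shCtrl replicate 1.

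The summed level of the MRPL genes was 2343, 2294 and 2320 CPM in shGDPD5 libraries, against 2178, 2170 and 2226 CPM in shCtrl libraries, a difference in the mean of 5.84% of the shCtrl mean. The summed level of the MRPS genes was 1582, 1568 and 1561 CPM in shGDPD5 libraries, against 1577, 1574 and 1616 CPM in shCtrl libraries, a difference of -1.21%. The groups did not overlap for the large subunit and overlapped for the small. The log2 ratio of large to small subunit sums was 0.56 ± 0.012 in shGDPD5 libraries and 0.46 ± 0.0019 in shCtrl libraries (SD, n = 3 each). The size of that gap depended in part on MRPS10, which was left out in an alternative chosen after seeing the data. MRPS10 held 5.63% to 5.91% of the small subunit sum in shGDPD5 libraries, against 9.09% to 9.64% in shCtrl libraries. Without MRPS10 the log2 ratio was 0.65 ± 0.01 in shGDPD5 libraries and 0.60 ± 0.01 in shCtrl libraries. The difference between the groups was then 0.04 instead of 0.10, and the small subunit sum was 2.65% higher in shGDPD5 libraries instead of lower. Leaving out a small subunit gene that fell narrows the gap by construction. MRPL42 fell too, from 7.63% to 9.21% of the large subunit sum in shCtrl libraries to 5.82% to 6.27% in shGDPD5 libraries. Sums without MRPL42, and sums with MRPS30, MRPS18A and MRPS36 placed by structure, were not computed.

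**Figure D2:**
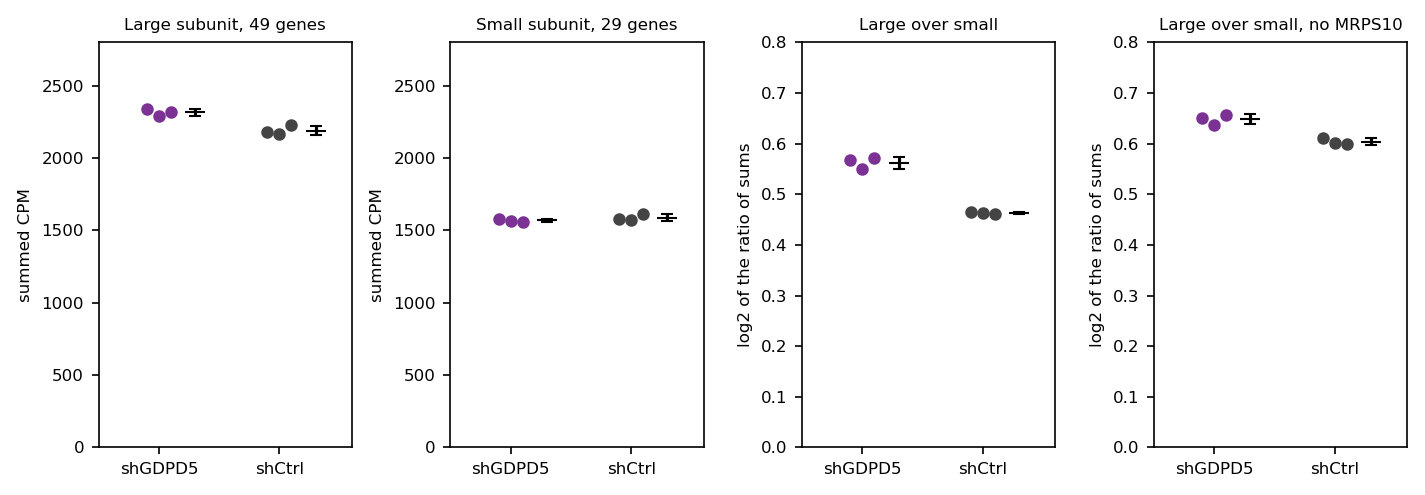
Summed CPM of the 49 MRPL and the 29 MRPS genes, and the log2 ratio of these sums with all genes and without MRPS10, in each shGDPD5 and shCtrl library (points), with mean and SD (n = 3 each). The shGDPD5 libraries lie above the shCtrl libraries for the large subunit and for both ratios, and overlap them for the small subunit.

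MRPS10 had the largest absolute difference of the family. Its product is a protein of the small subunit head with a bacterial counterpart, and the gene spans 42206801 to 42217865 of chromosome 6, minus strand (GENCODE release 29, GRCh38). It was at 89.1, 92.7 and 89.2 CPM in shGDPD5 libraries, against 152, 144 and 147 CPM in shCtrl libraries (log2 fold change -0.71 ± 0.05 SE, adjusted p = 6.96e-08). All shGDPD5 libraries lay far below all shCtrl libraries, and replicates of either group were close together. Per kilobase of exon, MRPS10 ranked 2 among the 78 genes in shCtrl libraries (70.0 CPM per kb) and 8 in shGDPD5 libraries (42.8 CPM per kb). No other annotated gene shares an exon with MRPS10, although 2 pseudogenes carry its name.

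MRPL58, also called ICT1, encodes a protein related to release factors that frees peptides from stalled mitoribosomes and is also a fixed component of the large subunit. Its gene spans 75012670 to 75021261 of chromosome 17, plus strand, and shares no exon with another annotated gene. MRPL58 was at 27.1, 26.5 and 28.2 CPM in shGDPD5 libraries, against 40.4, 41.1 and 43.9 CPM in shCtrl libraries (log2 fold change -0.62 ± 0.06 SE, adjusted p = 2.91e-06), with no overlap of the groups. The next lower large subunit genes were MRPL42, MRPL41, MRPL1 and MRPL54. MRPL42, a protein found only in mitochondria, was at 136, 144 and 144 CPM in shGDPD5 libraries and 200, 181 and 170 CPM in shCtrl libraries (-0.38 ± 0.06, adjusted p = 0.000145). It is among the most counted members, it has 5 named pseudogenes, and its counts were fractional in all 6 libraries, so reads may be shared with copies. MRPL1, the protein of the stalk that lets deacylated tRNA leave, was at 36.6, 39.7 and 37.2 CPM in shGDPD5 libraries and 52.8, 44.8 and 44.1 CPM in shCtrl libraries (-0.32 ± 0.07, adjusted p = 0.00274). Its shCtrl replicate 1 was the highest library, and the groups did not overlap.

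MRPL41 (-0.33 ± 0.11, adjusted p = 0.0212) and MRPL54 (-0.31 ± 0.09, adjusted p = 0.0119), both proteins with no bacterial counterpart, were called with fewer counts behind them. MRPL41 was at 16.9, 14.1 and 18.0 CPM in shGDPD5 libraries and 17.5, 22.1 and 22.1 CPM in shCtrl libraries, so the groups overlapped through shCtrl replicate 1. Without shCtrl replicate 1 its log2 fold change was -0.44 (adjusted p = 0.00262), and it was no longer called without shCtrl replicate 2, shCtrl replicate 3 or shGDPD5 replicate 2 (adjusted p = 0.0819, 0.0697 and 0.0820). MRPL54 was not called without shCtrl replicate 2. The remaining lower MRPL genes, MRPL17, MRPL19, MRPL30 and MRPL15, had log2 fold changes of -0.26 to -0.19.

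Among MRPS genes, MRPS18C (-0.35), MRPS28 (-0.29), MRPS30 (-0.20) and MRPS23 (-0.19) followed MRPS10. MRPS18C, 1 of 3 human relatives of a single bacterial protein, was at 46.4, 51.7 and 46.9 CPM in shGDPD5 libraries, against 63.8, 61.0 and 60.3 CPM in shCtrl libraries (± 0.06 SE, adjusted p = 0.000246). MRPS18C has 3 named pseudogenes and fractional counts in all 6 libraries. The 3 human relatives differed. MRPS18B was called lower at -0.17 ± 0.06 (adjusted p = 0.0330), a call lost when any library but shCtrl replicate 1 was left out (adjusted p 0.0651 to 0.118). MRPS18A was at 24.96, 26.6 and 26.1 CPM in shGDPD5 libraries and 21.7, 27.6 and 29.6 CPM in shCtrl libraries, a log2 fold change of -0.02 ± 0.10 that was not called. MRPS28, a protein of the small subunit body, was at 34.5, 31.3 and 32.4 CPM in shGDPD5 libraries and 40.2, 39.8 and 39.8 CPM in shCtrl libraries (adjusted p = 0.00116). MRPS23, another protein of the body, was at 101, 102 and 96.3 CPM in shGDPD5 libraries and 116, 109 and 115 CPM in shCtrl libraries (adjusted p = 0.00539). In both genes all shGDPD5 libraries were below all shCtrl libraries, as in 5428 of the 16755 genes tested. MRPS30 (adjusted p = 0.0199) was not called without shGDPD5 replicate 2.

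The highest members belonged to the large subunit. MRPL16 encodes a conserved protein near the tRNA sites of the large subunit, with its gene at 59806135 to 59810872 of chromosome 11, minus strand. It was at 36.9, 36.9 and 38.5 CPM in shGDPD5 libraries, against 21.9, 22.1 and 25.3 CPM in shCtrl libraries (log2 fold change 0.70 ± 0.07 SE, adjusted p = 3.02e-06). MRPL9, a conserved protein at the base of the stalk that MRPL1 belongs to, with its gene at 151759643 to 151763564 of chromosome 1, minus strand, was at 43.1, 43.7 and 43.1 CPM in shGDPD5 libraries and 26.4, 26.6 and 27.4 CPM in shCtrl libraries (0.69 ± 0.06, adjusted p = 4.72e-07). In both genes every shGDPD5 library exceeded every shCtrl library, as in 5454 of the 16755 genes tested. The spread within a group was small beside the difference. No other annotated gene shares an exon with MRPL16, whereas MRPL9 overlaps 3 annotated genes, of which OAZ3 was tested and not called (-0.65 ± 0.31, adjusted p = 0.0915).

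MRPL37, a mitochondria-specific protein with its gene at 54184041 to 54225464 of chromosome 1, plus strand, was at 84.2, 79.3 and 81.4 CPM in shGDPD5 libraries, against 49.3, 52.3 and 59.1 CPM in shCtrl libraries (0.61 ± 0.07, adjusted p = 6.02e-06). MRPL23, a protein at the exit of the peptide tunnel, was at 15.02, 12.3 and 14.3 CPM in shGDPD5 libraries and 6.99, 9.31 and 11.3 CPM in shCtrl libraries (0.59 ± 0.15, adjusted p = 0.00413). The difference in MRPL23 rests on low counts, 120 to 257 per library, and has the largest standard error of the family, and the groups did not overlap. MRPL11, a protein at the base of the stalk that recruits translation factors, was at 53.5, 47.6 and 53.7 CPM in shGDPD5 libraries and 33.9, 34.2 and 36.9 CPM in shCtrl libraries (0.56 ± 0.07, adjusted p = 1.29e-05). After these, MRPL38, MRPL27, MRPL2, MRPL34 and MRPL13 were higher by 0.40 to 0.53 on the log2 scale.

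Of the MRPS genes, MRPS7 showed the largest rise. It encodes a conserved protein of the small subunit head that lies close to the mRNA exit, with its gene at 75261674 to 75266373 of chromosome 17, plus strand, and was at 77.9, 80.5 and 75.9 CPM in shGDPD5 libraries, against 49.4, 56.3 and 55.9 CPM in shCtrl libraries (0.54 ± 0.06, adjusted p = 8.76e-06). MRPS11, a conserved protein of the platform, was at 23.0, 19.4 and 21.4 CPM in shGDPD5 libraries and 13.7, 17.7 and 16.9 CPM in shCtrl libraries (0.40 ± 0.10, adjusted p = 0.00489). MRPS24 (0.37 ± 0.08), MRPS21 (0.32 ± 0.07) and MRPS12 (0.32 ± 0.09) followed. MRPS12, the protein of the decoding site, was at 25.7, 22.8 and 24.6 CPM in shGDPD5 libraries and 17.3, 19.6 and 21.7 CPM in shCtrl libraries (adjusted p = 0.00769). In these 5 genes all shGDPD5 libraries were above all shCtrl libraries, as in 5454 of the 16755 genes tested. MRPS21 has 8 named pseudogenes, although its counts were whole in every library. MRPS24 shares exons with the readthrough gene URGCP-MRPS24, and its counts were fractional in all 6 libraries. Reads of either gene may be shared with copies.

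**Figure D3:**
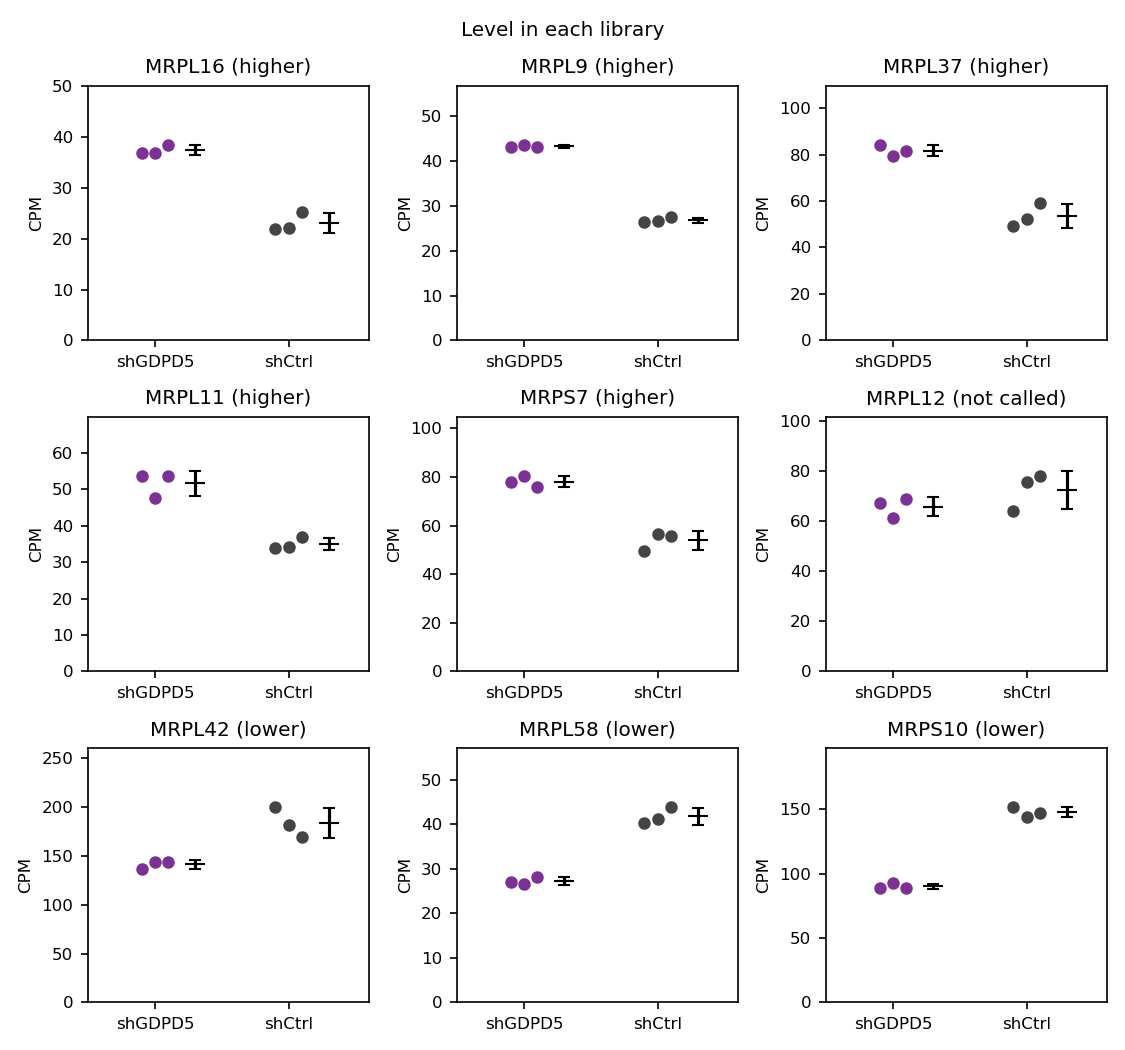
CPM (y axis, from 0) of 9 members in each of 3 shGDPD5 and 3 shCtrl libraries (points), with mean and SD. MRPL16, MRPL9, MRPL37, MRPL11 and MRPS7 are higher in every shGDPD5 library, MRPL42, MRPL58 and MRPS10 are lower in every one, and MRPL12 overlaps.

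Genes of both directions were found in every part of the ribosome examined. Of the 30 large subunit proteins with a bacterial counterpart 12 were higher and 5 lower (median 0.08), and of the 19 without one 7 were higher and 4 lower (median 0.11). Of the 16 conserved small subunit proteins 8 were higher and 4 lower (median 0.17), and of the 10 found only in mitochondria 2 were higher and 3 lower (median 0.00). MRPS30, MRPS18A and MRPS36 were in none of these lists by conservation, and of them MRPS30 was called lower. The central protuberance, where the large subunit touches the head of the small one, had 2 higher and 1 lower of 8 genes, and the proteins around the tunnel exit 4 higher and 1 lower of 8. The head of the small subunit had 3 higher and 2 lower of 8 genes, and its body 7 higher and 5 lower of 18. These counts of a few genes stand beside the background of 29.7% higher and 30.1% lower, and none was tested against it.

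The proteins of the stalk that recruits elongation factors differed in their calls. MRPL11 and MRPL10 (0.22 ± 0.06, adjusted p = 0.00657), its base and anchor, were higher, while MRPL12, the protein that forms the mobile arms and has been linked to mitochondrial RNA polymerase, was not called. MRPL12 was at 67.2, 61.4 and 68.7 CPM in shGDPD5 libraries, against 63.9, 75.7 and 78.1 CPM in shCtrl libraries (-0.14 ± 0.08, adjusted p = 0.120). Its groups overlapped through shCtrl replicate 1. Without shCtrl replicate 1 MRPL12 was called lower, at -0.23 (adjusted p = 0.00253), and with no filter on low counts at -0.16 (adjusted p = 0.0398), whereas leaving out any other library gave an adjusted p of 0.112 to 0.347.

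Other members were described for their known roles. MRPL45, which tethers the tunnel exit to the inner membrane, was higher at 91.9, 96.6 and 90.0 CPM in shGDPD5 libraries and 78.5, 77.4 and 75.8 CPM in shCtrl libraries (0.27 ± 0.05, adjusted p = 0.000552). MRPL32, whose maturation by the m-AAA protease precedes assembly of the large subunit, was not called (-0.05 ± 0.06, adjusted p = 0.507). In the small subunit, MRPS34, needed for stability of that subunit, was higher (0.27 ± 0.08, adjusted p = 0.00875). MRPS2 (0.18 ± 0.09, adjusted p = 0.0921) and MRPS22 (0.02 ± 0.05, adjusted p = 0.807), both altered in inherited disorders of mitochondrial translation, were not called. MRPS16, another gene of such disorders, was at 85.6, 87.0 and 87.4 CPM in shGDPD5 libraries and 94.2, 92.9 and 94.1 CPM in shCtrl libraries (-0.11 ± 0.05, adjusted p = 0.0493). This call sat at the threshold and was lost in most alternatives. MRPS36 was at -0.03 ± 0.06 and not called.

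Sharing of annotated exons moved with direction. In GENCODE release 29, 41 of the 78 members overlap an exon of another gene on either strand, and whether the deposited counts used strand is not given in the sources used here. Among these 41 genes 19 were higher (46.3%) and 6 lower (14.6%), with a median of 0.16. Among the 37 without overlap 10 were higher (27.0%) and 11 lower (29.7%), with a median of -0.02. The shares without overlap were near the 29.7% higher and 30.1% lower over all genes tested. That background includes genes that share exons, and shares of all tested genes without overlap were not computed. Of the members described above, MRPL37, MRPL23, MRPL11, MRPL9, MRPS7, MRPS11, MRPS12, MRPS18C and MRPS16 are among those sharing exons with a gene on the other strand. MRPL42, MRPL12, MRPS28 and MRPS24 are among those sharing exons with a gene on the same strand. The values of all these members are uncertain to that extent. The partners of MRPL42, MRPL12, MRPS28, MRPS24 and MRPS11 were not among the genes tested, whereas each of the others named has a tested partner. The 41 genes include members of both kinds. MRPS10, MRPL58, MRPL16, MRPL1, MRPL45 and MRPS23 share no exon. MRPL58, MRPS10 and MRPL16 thus keep among the largest differences of the family with no annotated exon shared. MRPL45, however, has 2 named pseudogenes and fractional counts in all 6 libraries, and MRPS23 has fractional counts in 2. Among the 32 members with whole counts in every library 11 were higher (34.4%) and 9 lower (28.1%), with a median of -0.01. Both divisions were made after seeing the data, and the part of shared reads in these differences was not tested.

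Proteins of the mitoribosome whose symbols follow another scheme gave 4 higher (80%) and 0 lower of 5. Over all genes tested 29.7% were higher and 30.1% lower. GADD45GIP1, a large subunit protein, was at 22.5, 19.6 and 22.5 CPM in shGDPD5 libraries, against 14.5, 15.2 and 15.1 CPM in shCtrl libraries (0.53 ± 0.08, adjusted p = 0.000133). The small subunit proteins PTCD3 (0.28), CHCHD1 (0.20) and DAP3 (0.17) were also higher, and AURKAIP1 (0.06) was not called. All 5 log2 fold changes were above 0, that of AURKAIP1 by less than its standard error (0.09). Of the 78 genes 44 were above 0, and of all 16755 genes tested 8498. The list of 5 is short, and no test was made.

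The mitochondrial rRNAs around which these proteins assemble diverged. MT-RNR1, the rRNA of the small subunit, was at 4541, 4349 and 4707 CPM in shGDPD5 libraries, against 1384, 1388 and 1381 CPM in shCtrl libraries (1.71 ± 0.04, adjusted p = 1.73e-11). MT-RNR2, the rRNA of the large subunit, was lower by a small amount (-0.15 ± 0.04, adjusted p = 0.00546). The libraries were made with an mRNA kit, and the part of rRNA removal or capture in these levels was not tested. Of the 13 mitochondrially encoded mRNAs 9 were higher (69.2%) and 1 lower (7.69%), with a median of 0.25. Over all genes tested the shares were 29.7% and 30.1%. MT-ND6 (0.90), MT-ND5 (0.81) and MT-ND2 (0.50), subunits of complex I, were among the higher, while MT-CO1, a subunit of cytochrome c oxidase, was lower (-0.52). The 13 mRNAs took up to 10.7% of the counts in shGDPD5 libraries and up to 9.34% in shCtrl libraries.

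Factors that build the mitoribosome also moved in both directions. Of 27 assembly and rRNA modification factors 15 were higher and 5 lower (median 0.23), which is 55.6% and 18.5% beside the background of 29.7% and 30.1%. METTL17, required for small subunit assembly, was at 53.7, 53.2 and 55.7 CPM in shGDPD5 libraries, against 24.3, 27.8 and 27.3 CPM in shCtrl libraries (1.03 ± 0.06, adjusted p = 4.02e-08). The helicase DHX30 (0.69) and the pseudouridine synthase RPUSD4 (0.66) were higher as well, and NGRN, which binds the large rRNA with RPUSD4, was lower (-0.60). Of 13 genes for transcription, RNA processing and maintenance of mitochondrial DNA 8 were higher and 1 lower (median 0.35), or 61.5% and 7.69%. Those higher included TEFM (0.68), the elongation factor of the mitochondrial RNA polymerase, the RNA processing enzymes ELAC2 (0.59) and HSD17B10 (0.43), and POLG (0.45), the DNA polymerase.

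Of the 16 translation factors that work on the assembled ribosome 5 were higher (31.2%, near the background of 29.7%) and 7 lower (43.8%, beside 30.1%), with a median of -0.15. TUFM, the elongation factor that delivers tRNA, was at 246, 258 and 244 CPM in shGDPD5 libraries and 132, 159 and 166 CPM in shCtrl libraries (0.71 ± 0.07, adjusted p = 2.59e-06), and OXA1L, the insertase that receives nascent chains, was higher by 0.44. GUF1, a back-translocating elongation factor, was lower (-0.72), as was GFM2, which splits the ribosome after termination (-0.61). Of 9 inner membrane and matrix quality control genes 22.2% were higher and 33.3% lower, near the background. The 2 higher were SPG7 (0.62), a subunit of the m-AAA protease, and PHB1 (0.58), a prohibitin, and the 3 lower included LONP1 (-0.65), the matrix protease, and YME1L1 (-0.22). Among 8 tested regulators of nuclear genes for mitochondria GABPB1, a subunit of the factor that binds the ETS motif, was lower (-0.62), as were YY1 (-0.18) and MYC (-0.19), and PPRC1 was higher (0.18). GABPA (-0.03) and NRF1 (0.00) were not called, and PPARGC1A was at 0 counts in every library.

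**Figure D4:**
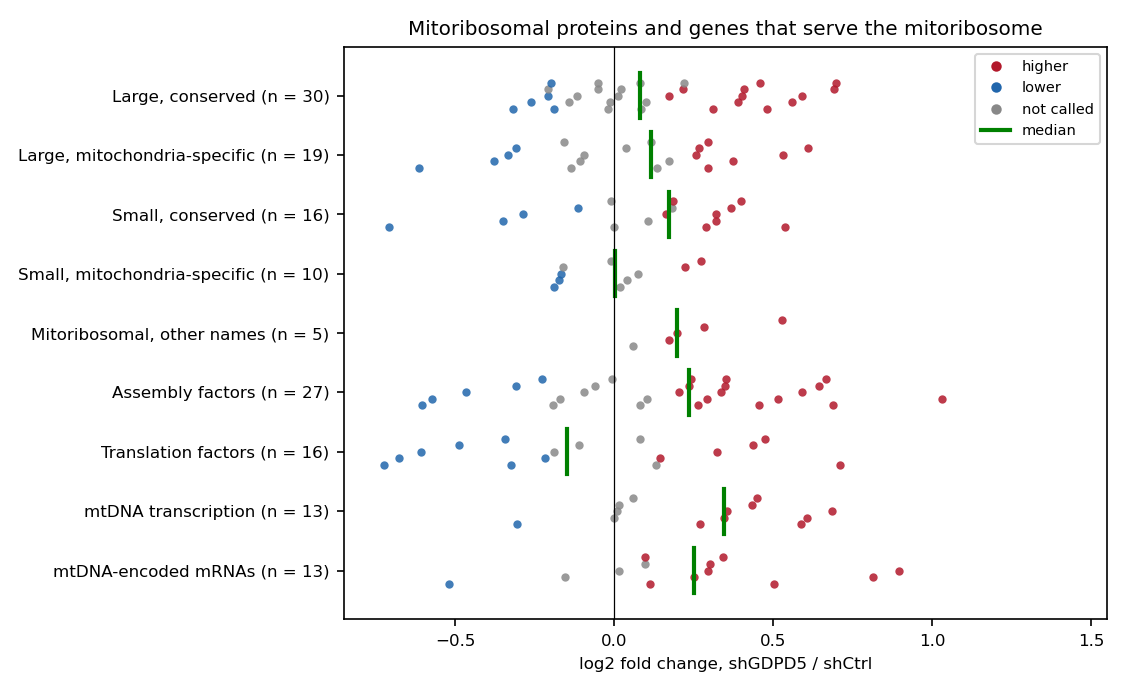
Log2 fold change (shGDPD5 over shCtrl, x axis) of the members by subunit and conservation and of the gene lists around the mitoribosome, 1 point per gene coloured by the edgeR call, with the median of each list (bar). MRPS30, MRPS18A and MRPS36 are not shown. Each list holds genes on both sides of 0 except the mitoribosomal proteins of other names, and the list medians run from -0.15 for translation factors to 0.35 for mitochondrial DNA transcription.

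Set beside the other large protein families of translation and respiration, the mitoribosomal proteins had a median between theirs. Of 77 cytosolic ribosomal protein genes 4 were higher (5.19%) and 58 lower (75.3%), with a median of -0.29. Of 75 nuclear genes for oxidative phosphorylation subunits 46 were higher (61.3%) and 3 lower (4%), with a median of 0.21. The mitoribosomal genes had 29 higher (37.2%) and 17 lower (21.8%) and a median of 0.06, with members in each direction in both subunits. Over all genes tested 29.7% were higher and 30.1% lower. No test was made between these families, and genes are not independent replicates.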

How the data were processed

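RNA-seq of 6 HCT116 libraries, 3 shGDPD5 and 3 shCtrl, was analysed from 1 table of estimated counts per gene that the authors deposited. Groups came from the sample labels, and each column was matched to a label. Aligner, counting tool, strand setting and genome build: not given in the sources used here. Deposited estimated counts, which need not be whole, were rounded to whole numbers (largest change 0.5). The default filter of edgeR 4.0.16 (minimum count 10) left 16755 of 79302 genes. Libraries were scaled by TMM, groups were compared with edgeR's quasi-likelihood test in R 4.3.3, and p-values were adjusted by Benjamini-Hochberg over all genes tested. CPM were computed after TMM scaling. Total counts of 16715447 to 18510670 per library and 3 libraries a group set the precision. The test was first tried on simulated counts with known changes.

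Members and lists were chosen with earlier results of these data known. Named members were, in each subunit and direction, up to 5 called genes of largest absolute log2 fold change, members chosen by role, and up to 4 genes of smallest adjusted p in each other list. Genes named outside this rule (in counts of 5 or fewer, in ranges, as exon partners or as examples not called) were chosen after their values were seen. Lists were written from general knowledge, and 95.5% of tested genes had a symbol. Exon overlaps and positions came from GENCODE release 29 (GRCh38), promoter windows from RefSeq (GRCh38.p14). Alternatives were RLE and upper quartile factors, exclusion of mitochondrially encoded genes, DESeq2 1.42.0, limma-voom (limma 3.58.1), 2 other filters, a replicate block, each library left out, 2 fold thresholds, subunits by structure and, added after seeing the data, members without exon overlap, members with whole counts and sums without MRPS10. Figures were drawn with matplotlib 3.10.9.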

Additional observations from a re-analysis of the deposited data

How the results depend on the processing

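Of the 46 called members, 38 to 45 kept their call and direction in each of 14 refits, none turned round, and 26 higher and 11 lower genes were called in all of them. Leaving out 1 library gave 26 to 30 higher and 12 to 20 lower members, 18 to 20 higher and 7 to 11 lower MRPL genes, and 8 to 10 higher and 5 to 9 lower MRPS genes. The fold thresholds left fewer calls by construction: over 1.5-fold, 4 higher and 2 lower members (4 and 1 MRPL, 0 and 1 MRPS), and at an absolute log2 fold change of 1 or more with an unadjusted p under 0.05, 0 in every count. Among members without exon overlap 10 were higher and 11 lower (median -0.019), and among those with whole counts 11 were higher and 9 lower (median -0.012). These lists hold fewer genes, and the cause of the shift in direction was not tested. Without MRPS10 the log2 difference of sums was 0.065 for all members instead of 0.04, 0.038 for the small subunit instead of -0.02, and 0.044 for the log2 ratio of large to small instead of 0.10.

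Among genes that were not called, leaving out 1 library changed the sign of MRPS22 (-0.034 to 0.040, negative without shCtrl replicate 2 or shGDPD5 replicate 3), MRPS18A (-0.15 to 0.067, positive without shCtrl replicate 2, shCtrl replicate 3 or shGDPD5 replicate 1) and MRPS36 (-0.065 to 0.012, positive without shGDPD5 replicate 1).

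Same-numbered libraries did not deviate together (correlations -0.07, -0.05 and -0.04 over genes), so the numbers were not taken as pairs. With the replicate block 27 members were higher and 16 lower, and 43 calls were kept, MRPL22, MRPS16 and MRPS6 being lost. MRPL23, MRPL55 and MRPL53 had few counts and the largest standard errors of the family. MRPL23 was called higher, and MRPL55 and MRPL53 were not called. The part of depth in these calls was not tested.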

Other observations

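Several members share exons with genes that changed more than they did, and the values are given here without a reading of them. MRPL51 (0.26) overlaps NCAPD2, a condensin subunit (1.20, adjusted p = 8.04e-10), on the other strand. MRPL13 (0.40) overlaps MTBP (1.04, adjusted p = 9.95e-08), and MRPS14 (0.11, not called) overlaps CACYBP (0.86, adjusted p = 2.05e-08), each on the other strand. MRPL32 (-0.05, not called) overlaps the proteasome gene PSMA2 (0.74, adjusted p = 2.72e-08) on the other strand, and MRPS16 (-0.11) overlaps the histone chaperone gene DNAJC9 (0.62, adjusted p = 4.47e-07) on the same strand. Others overlap a gene that was lower: MRPS27 (0.22) overlaps PTCD2 (-0.70, adjusted p = 4.34e-06), MRPS7 (0.54) overlaps MIF4GD (-0.74, adjusted p = 2.12e-05), and MRPL19 (-0.21) overlaps GCFC2 (-0.71, adjusted p = 5.09e-06). A member and its partner thus had the same sign in some pairs and the opposite sign in others.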
